A study of Homo sapiens with 6 samples.

Results

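The genes of 4 secreted, stress-induced proteins, STC2, VEGFA, GDF15 and ADM, were followed in MOLM14, an established cell line from a human acute myeloid leukaemia. They were chosen by name, and all 4 were found among the 14884 named genes of the arrays, each with 1 annotated probe set. The study transfected MOLM14 by electroporation with 70 nM of a small interfering RNA (siRNA) against ATF4 (siATF4, 3 arrays) or with the same dose of a non-targeting control pool (siCTRL, 3 arrays), and asks which transcripts differ when ATF4 is targeted. Cells of both groups grew in RPMI with serum and went through the same electroporation, and no untransfected or chemically stressed cells were included here. The siRNA came as 1 product per group, all arrays are of 1 cell line, and the labels call the replicates technical, so a p-value here reflects the spread among these arrays, which may be technical. Time after transfection is not stated in the labels.

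ATF4 is the transcription factor of the integrated stress response: stress kinases slow general translation through eIF2, ATF4 protein is then made more efficiently, and it turns on genes for amino acid supply, redox balance and secreted signals. STC2 (stanniocalcin 2) is a secreted glycoprotein that inhibits the protease PAPP-A and is made in response to endoplasmic reticulum stress. VEGFA is the vascular endothelial growth factor, a target of both hypoxia-inducible factors (HIF) and ATF4. GDF15 is a distant member of the TGF-beta family that signals through GFRAL and RET in the hindbrain and is induced by both p53 and the integrated stress response. ADM encodes adrenomedullin, a vasoactive peptide hormone that is a classical hypoxia target and acts on CALCRL paired with a RAMP protein.

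The start sites of 3 of the 4 genes, STC2, GDF15 and ADM, were matched in the RefSeq promoter table (GRCh38.p14); VEGFA was not matched. The 250 bases before each start are shown because ATF4 is known to act through the composite element TGATGNAA and HIF through the core ACGTG or GCGTG. Both motifs were searched on both strands, and the CCAAT box, the letters CCAAT bound by NF-Y, was added after the sequences were seen. Sequences run 5′ to 3′ along the gene's strand, and capitals mark the HIF core GCGTG, its reverse complement CACGC and the CCAAT box read on the opposite strand, ATTGG.
STC2, chr5:173328415-173328664, minus strand: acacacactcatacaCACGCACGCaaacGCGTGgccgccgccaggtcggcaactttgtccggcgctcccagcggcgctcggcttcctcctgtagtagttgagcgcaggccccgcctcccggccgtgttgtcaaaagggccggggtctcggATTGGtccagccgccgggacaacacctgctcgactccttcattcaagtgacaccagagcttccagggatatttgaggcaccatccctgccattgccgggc
ADM, chr11:10304823-10305072, plus strand: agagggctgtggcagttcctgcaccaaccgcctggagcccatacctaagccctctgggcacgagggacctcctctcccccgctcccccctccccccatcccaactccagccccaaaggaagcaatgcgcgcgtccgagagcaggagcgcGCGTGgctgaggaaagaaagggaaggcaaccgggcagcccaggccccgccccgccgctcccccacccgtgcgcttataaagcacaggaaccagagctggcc
GDF15, chr19:18385908-18386157, plus strand: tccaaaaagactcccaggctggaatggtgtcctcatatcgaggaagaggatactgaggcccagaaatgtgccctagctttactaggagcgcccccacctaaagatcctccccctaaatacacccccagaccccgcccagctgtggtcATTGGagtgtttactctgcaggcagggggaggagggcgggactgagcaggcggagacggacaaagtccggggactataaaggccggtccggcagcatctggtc

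The composite element was in 0 of these 3 windows, and in 3.14% of the 35116 promoters of the table over the same 250 bases. The search did find it in ASNS, the asparagine synthetase gene in which this element is well described, beginning 68 bases before the start. There the 38 bases at chr7:97872454-97872491 (GRCh38.p14, minus strand), with the element in capitals, are shown as a point of reference.
ASNS: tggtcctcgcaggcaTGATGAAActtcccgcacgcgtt
The HIF core was in STC2, beginning 222, 231 and 235 bases before the start with the latter pair overlapping, and in ADM, beginning 101 bases before it, but not in this window of GDF15. It was in 43.2% of all promoters, so its presence is common. The CCAAT box lay 100 bases before the start of STC2 and 103 before that of GDF15, was not in the ADM window, and was in 32.0% of all promoters. A match is a description of these letters and says nothing about binding, which was not measured.

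Levels are the authors' processed values, read as log2, with array medians between 3.88 and 3.96, and a difference is siATF4 minus siCTRL on that scale. ATF4 itself read 7.72, 7.88 and 8.14 on siATF4 replicates 1, 2 and 3 and 8.67, 8.64 and 8.85 on siCTRL replicates 1, 2 and 3, so the groups did not overlap. The siATF4 replicate 1 array stood apart: 133 genes lay there more than 1 log2 unit below all other 5 arrays and 133 lay as far above them, against at most 1 gene below and 10 above on any other array. Each member's difference is therefore also given without that array. Of 12 identity markers of a myelomonocytic line 7 were measured, with LYZ at 8.33 to 10.87 and FLT3 at 8.19 to 9.67, while the monocyte antigen CD14 was dim at 3.22 to 4.18, below the median of named genes on every array. Their mean level was 7.27, 7.24 and 6.43 with siATF4 and 7.52, 7.25 and 6.39 with siCTRL, lowest on replicate 3 of both groups. The largest differences among them were those of the granule enzyme MPO at -1.45 (-0.16 without siATF4 replicate 1), the receptor CSF1R at 0.57 (-0.26 without it) and the receptor CSF3R at 0.53 (-0.11 without it). Of 16 markers of other cell types 5 were measured, with mean levels of 5.36 to 5.73 with siATF4 and 5.29 to 5.81 with siCTRL. KLF1 (3.57 to 3.86) and EPCAM (3.86 to 4.08) read below the median of named genes on every array. Brighter were KRT18 (6.11 to 7.40), NKG7 (6.61 to 7.62) and PECAM1 (5.26 to 6.82). The difference of KRT18 was -0.43 (-0.12 without siATF4 replicate 1), that of NKG7 0.25 (0.07) and that of PECAM1 0.10 (-0.23). The part of these markers in the results below was not tested. In these bulk samples fewer cells that make a transcript and less of it per cell cannot be told apart.

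STC2 had the largest difference of the 4. Its level was 4.35, 4.63 and 4.51 on siATF4 replicates 1 to 3 and 5.09, 5.29 and 5.87 on siCTRL replicates 1 to 3. Every siATF4 array was under every siCTRL array, with 0.46 log2 units between the nearest arrays, and the highest level was on siCTRL replicate 3. The means were 4.50 ± 0.14 (SD, n = 3) and 5.42 ± 0.41 (SD, n = 3), so the control arrays were the more scattered group. The difference was -0.92 with a moderated standard error (SE) of 0.21 and a 95% interval of -1.42 to -0.42, which corresponds to 52.8% of the control level (37.2% to 74.9%). Limma, a linear model fitted to all 14884 genes, gave an unadjusted p of 0.00361 and, after Benjamini-Hochberg adjustment, 1.00. An exact permutation test (two-sided) gave p = 0.1, and with 3 arrays in each group no lower value is possible. The difference by replicate number was -0.74, -0.66 and -1.36. Without siATF4 replicate 1 it was -0.85 (SE 0.24). Among all genes STC2 held rank 46 from the lowest difference and rank 10 by unadjusted p, where ATF4 held ranks 69 and 2.

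VEGFA, the brightest of the 4 probe sets within its arrays, was lower with siATF4 by a similar amount but with groups that almost touched. Its level was 6.11, 6.84 and 6.04 on siATF4 replicates 1 to 3 and 7.52, 6.99 and 6.88 on siCTRL replicates 1 to 3. The groups did not overlap, yet only 0.04 log2 units separated siATF4 replicate 2 from siCTRL replicate 3. The means were 6.33 ± 0.44 and 7.13 ± 0.34 (SD, n = 3 each). The difference was -0.80 (SE 0.27, 95% interval -1.43 to -0.17), or 57.3% of the control level (37.0% to 88.9%), with an unadjusted p of 0.0201 and an adjusted p of 1.00 in limma and an exact permutation p of 0.1 (two-sided). By replicate number it was -1.41, -0.15 and -0.84, so the arrays numbered 2 differed little. Without siATF4 replicate 1 the difference was -0.69 (SE 0.30), and without both arrays numbered 1 it was -0.50.

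GDF15 was lower on average, with groups that overlapped. Its level was 4.31, 4.58 and 4.61 on siATF4 replicates 1 to 3 and 5.0, 4.57 and 5.48 on siCTRL replicates 1 to 3. The siATF4 arrays were tightly grouped over 0.31 log2 units, the siCTRL arrays spread over 0.91, and siCTRL replicate 2 sat level with siATF4 replicates 2 and 3. The means were 4.50 ± 0.17 and 5.01 ± 0.46 (SD, n = 3 each), a difference of -0.52 (SE 0.23, 95% interval -1.08 to 0.04), or 69.9% of the control level. Limma gave an unadjusted p of 0.0655 (adjusted p = 1.00), and the exact permutation test, two-sided, p = 0.3. By replicate number the difference was -0.69, 0.01 and -0.87. It was -0.42 (SE 0.26) without siATF4 replicate 1 and -0.28 without siCTRL replicate 3, the array with the highest level.

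ADM did not differ beyond the spread between arrays. Its level was 3.60, 4.77 and 4.42 on siATF4 replicates 1 to 3 and 4.79, 4.59 and 4.26 on siCTRL replicates 1 to 3. The siATF4 replicate 1 array was the lowest of all 6, and siATF4 replicates 2 and 3 lay within the range of the controls. The means were 4.26 ± 0.60 and 4.55 ± 0.27 (SD, n = 3 each), and the difference was -0.28 (SE 0.31, 95% interval -1.01 to 0.44). Limma gave an unadjusted p of 0.384 (adjusted p = 1.00), with an exact permutation p of 0.6 (two-sided). The value turned to 0.05 (SE 0.20) without siATF4 replicate 1, and by replicate number it was -1.19, 0.18 and 0.16. The interval still includes a decrease to 49.6% and an increase to 136% of the control level, so equal levels were not shown either.

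**Figure D1:**
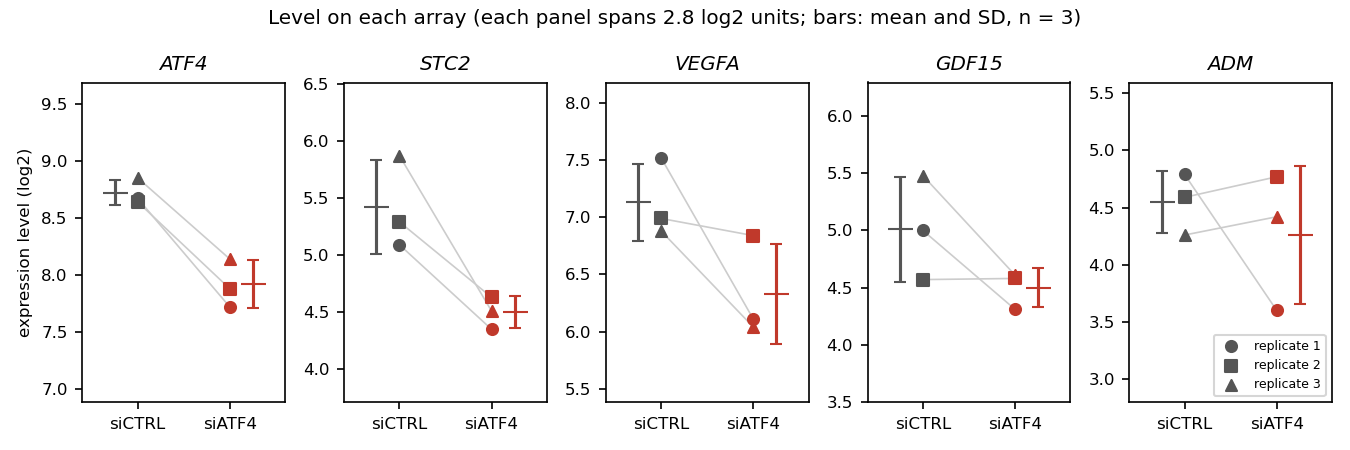
The vertical axis gives the log2 level of ATF4 and of the 4 secreted factors on each array, with symbols for the replicate numbers, grey lines joining arrays of the same number and bars for the mean and SD of 3 arrays. The groups are apart for ATF4 (0.50 log2 units between the nearest arrays), STC2 (0.46) and VEGFA (0.04) and overlap for GDF15 and ADM, where siATF4 replicate 1 at 3.60 is the low point.

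Read together, all 4 genes had a lower mean with siATF4, and the median of their differences was -0.66 against 0.01 over all genes tested, 46.2% of which were lower. None of the 4 passed an adjusted p of 0.05 in limma, where 0% of genes did so (0 of 14884, with 218 genes at an unadjusted p below 0.05). At an unadjusted p below 0.05 and a lower level there were 2 of the 4, STC2 and VEGFA, beside 0.531% of all genes. VEGFA was no longer below it without siATF4 replicate 1 (unadjusted p = 0.0587 in limma), siATF4 replicate 3 (0.0614) or siCTRL replicate 1 (0.0664), which left STC2 alone. The same 2 genes had all siATF4 arrays below all siCTRL arrays, as did 2.59% of all genes, and were lower in every replicate number, as were 9.20% of all genes. With the replicate number as a block the SE of GDF15 fell from 0.23 to 0.19 and its unadjusted p was 0.0360 (95% interval -0.98 to -0.05). That makes 3 of the 4 lower at an unadjusted p below 0.05 with the block, beside 0.934% of all genes, and every adjusted p of the 4 was still 1.00. The 4 genes were proposed with earlier results of these data known, so these counts describe them and are no independent evidence.

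**Figure D2:**
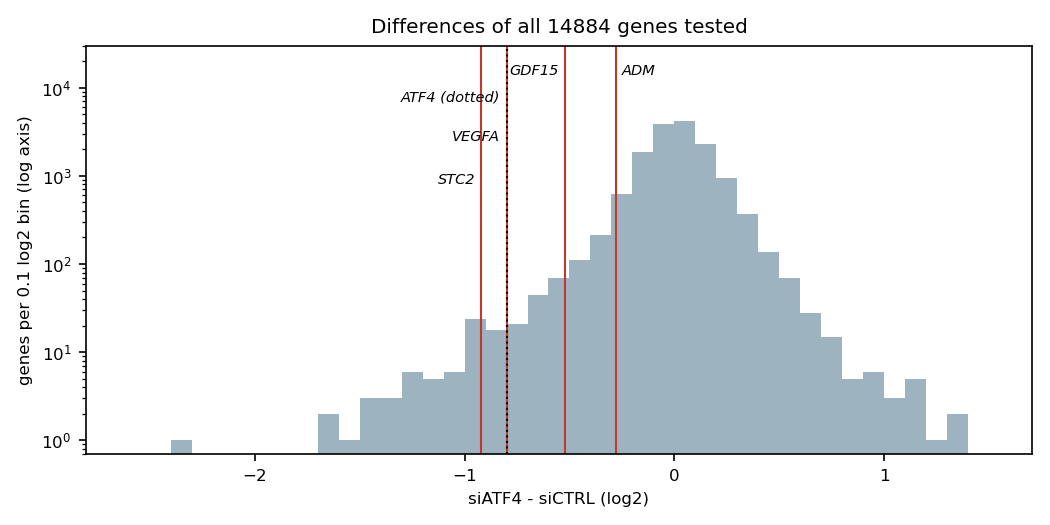
The horizontal axis gives the log2 difference (siATF4 minus siCTRL) of all 14884 genes and the vertical axis, on a log scale, the number of genes per bin. Solid lines mark STC2 at -0.92, VEGFA at -0.80, GDF15 at -0.52 and ADM at -0.28, and a dotted line marks ATF4 at -0.80, next to VEGFA. STC2 and VEGFA lie in the thin lower tail and ADM on the shoulder of the main body.

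The size of each difference varied with the arrays that entered the fit. With 1 array left out in turn STC2 ranged from -1.08 to -0.69, VEGFA from -1.06 to -0.61, GDF15 from -0.74 to -0.28 and ADM from -0.54 to 0.05. Arrays of the same number supplied different parts of each mean: number 3 gave the largest decrease of STC2 and GDF15, and number 1 that of VEGFA and ADM.

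**Figure D3:**
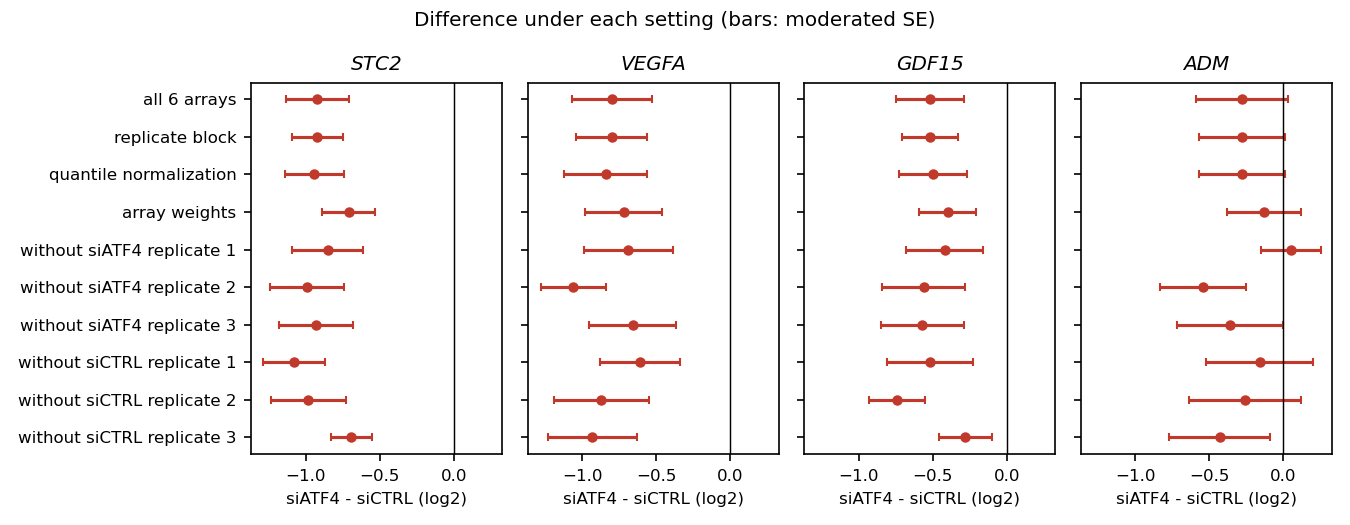
The horizontal axis gives the log2 difference (siATF4 minus siCTRL) and the rows give the settings: all 6 arrays, the replicate block, quantile normalization, array weights, and each array left out in turn, with bars for the moderated SE. STC2, VEGFA and GDF15 stay below 0 in each row shown, and ADM crosses to 0.05 without siATF4 replicate 1.

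The genes whose pattern over the 6 arrays was most like that of each factor differed between the 4. The measure was Pearson's r of the log2 level over 6 arrays, a description that includes the difference between groups, among 4297 protein-coding genes brighter than the median gene and with a range of at least 0.5 log2 units (4298 for ADM). A neighbour's likeness to its factor on single arrays follows from this choice. STC2 was followed most closely by SHMT2 (r = 0.977), a mitochondrial serine hydroxymethyltransferase, PSAT1 (0.963), an enzyme of serine synthesis, and MARS1 (0.959), the cytosolic methionyl-tRNA synthetase. The mitochondrial protease subunit AFG3L2 (0.956) and the co-chaperone BAG2 (0.941) came next, and ATF4 itself stood at 0.916. SHMT2 was at 6.71, 6.86 and 6.78 after siATF4 and at 7.27, 7.15 and 7.65 after siCTRL, high on siCTRL replicate 3 as STC2 was. GDF15 was followed by the ubiquitin ligase PELI1 (0.989), the actin regulator EPS8 (0.987), the mitochondrial outer membrane protein MTX1 (0.982), the threonyl-tRNA synthetase TARS1 (0.973) and the lipoprotein receptor VLDLR (0.968). Between STC2 and GDF15 r was 0.857. SHMT2 and PSAT1 beside STC2 and VLDLR beside GDF15 belong to the list of ATF4 targets that are not secreted, described below. This overlap is no independent evidence, since r includes the difference between groups and the list was drawn up with earlier results known. The share of that list among all candidates was not tested.

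VEGFA and ADM had other neighbours. VEGFA was followed by the annexin ANXA7 (r = 0.982), SIRPD (0.964), the ubiquitin ligase PELI2 (0.964), the sulfotransferase UST (0.962) and TMEM117 (0.960), and r with ATF4 was 0.672. UST was at 4.80, 5.57 and 4.88 after siATF4 and at 6.07, 5.39 and 5.33 after siCTRL, the same order of a high siATF4 replicate 2 and a high siCTRL replicate 1 as in VEGFA. ADM was followed by ARHGAP32 (0.995), the R-spondin receptor LGR4 (0.993), the endoplasmic reticulum protein SERP1 (0.992), TMEM116 (0.991) and ZNF627 (0.991). LGR4 read 4.63 on siATF4 replicate 1 and 7.05 to 8.39 on the other 5 arrays, and SERP1 read 6.06 there and 7.10 to 7.71 elsewhere. All 5 neighbours of ADM were lowest on that array, as ADM was, which follows from choosing them by r. Between ADM and ATF4 r was 0.420.

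Targets of ATF4 that are not secreted, most of them intracellular, give the setting for the secreted ones. Of 16 listed 12 were measured, all 12 had a lower mean with siATF4 (12 also without siATF4 replicate 1) and 0 passed the adjusted threshold, with a median of -0.62. For 5 of the 12 all siATF4 arrays were under all siCTRL arrays, beside 2.59% of all genes. The groups of DDIT4, 1 of these 5, almost touched, with siATF4 replicate 2 at 8.22 and siCTRL replicate 3 at 8.23. In every replicate number 9 of the 12 were lower, beside 9.20% of all genes. Without siCTRL replicate 3 the median was -0.35 and 9 of the 12 were lower, with SESN2 at 0.28, CTH at 0.19 and PCK2 at 0.17. The largest differences were those of DDIT4, an inhibitor of mTORC1, at -1.66 (SE 0.79, or -0.69 without siATF4 replicate 1), PSAT1 at -1.01 (SE 0.30, or -0.64 without siCTRL replicate 3) and TRIB3, a pseudokinase, at -0.80 (SE 0.41, or -0.38 without siCTRL replicate 3). With the replicate block the SE was 0.68 for DDIT4, 0.24 for PSAT1 and 0.13 for TRIB3. By replicate number TRIB3 was at -0.60, -0.77 and -1.03 and DDIT4 at -3.87, -0.05 and -1.04. The STC2 and VEGFA differences lie within that range and those of GDF15 and ADM are smaller in size than the list's median. Of 10 listed stress-response transcription factors 7 were measured, the siRNA target ATF4 among them. All 7 had a lower mean (median -0.20), as did 46.2% of all genes. Only 6 were lower without siATF4 replicate 2, siATF4 replicate 3, siCTRL replicate 1 or siCTRL replicate 3. The largest decreases were those of ATF4, of ATF5 at -0.67 (SE 0.25) and of XBP1, a regulator of the unfolded protein response, at -0.58 (SE 0.28). Both lists were drawn up with earlier results of these data known.

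Other secreted or endoplasmic reticulum proteins tied to stress were divided in direction. Of 10 measured (of 13 listed) 5 were lower and 5 higher, 0 passed the adjusted threshold and the median was -0.01. The 5 higher members and FGF21 read below the median of named genes on every array, and the brighter members were all lower. With the dimmest genes filtered out the median was -0.11. The largest differences were those of the chemokine CXCL8 at -0.60 (SE 0.69), which turned to 0.24 without siATF4 replicate 1, of SDF2L1, a chaperone component of the endoplasmic reticulum, at -0.27 (SE 0.14), and of MANF, a secreted stress-response protein, at -0.19 (-0.05 without siATF4 replicate 1). The hormone FGF21, a known ATF4 target of liver and muscle, was at 3.38, 3.46 and 3.54 after siATF4 and at 3.30, 3.68 and 3.58 after siCTRL, near or below the lower quartile of named genes (3.53 to 3.65 by array).

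VEGFA and ADM are both induced by hypoxia-inducible factors, and the other hypoxia-induced genes were divided in direction. Of 11 measured (of 22 listed) 4 were lower and 7 higher, with a median of 0.06 and 0 past the adjusted threshold. Without siATF4 replicate 1 there were 6 lower and 5 higher, with a median of -0.0. The 11 were in no other list here, so a hypoxia-induced gene counted as an ATF4 target is not among them. At an unadjusted p below 0.05 there was 1 gene with all 6 arrays, higher with siATF4, beside 0.934% of all genes in that direction. That gene was LDHA, lactate dehydrogenase A, at 8.01, 8.04 and 8.09 with siATF4 and 7.81, 7.79 and 7.81 with siCTRL. All its siATF4 arrays lay above all siCTRL arrays, as did those of 491 of all 14884 genes. The difference of LDHA was 0.25 (SE 0.09, unadjusted p = 0.0351 in limma, adjusted p = 1.00), opposite in sign to VEGFA. With the replicate block the unadjusted p of LDHA was 0.0580 (95% interval -0.01 to 0.50), which leaves 0 genes of the list below 0.05. The oxidoreductase ERO1A was at -0.32 (SE 0.28, or -0.02 without siATF4 replicate 1) and NDRG1 at 0.19 (SE 0.17, or 0.04 without that array). Of the 4 HIF pathway regulators measured (of 9 listed) 3 were lower, and 2 without siATF4 replicate 1. EPAS1, which encodes HIF-2 alpha, was at 4.08, 5.99 and 4.81 after siATF4 and at 6.38, 5.97 and 5.06 after siCTRL, a difference of -0.85 (SE 0.53, or -0.40 without siATF4 replicate 1). The groups of EPAS1 overlapped, with siATF4 replicate 2 as high as siCTRL replicate 2. ARNT, the shared partner subunit, was at -0.22 (SE 0.13), and the prolyl hydroxylase EGLN1 was at -0.19 (SE 0.30) and turned to 0.10 without siATF4 replicate 1.

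GDF15 is also a p53 target, and it was the 1 measured gene of the p53 list used here with a lower mean. Apart from GDF15 the measured members of that list were in no other list here. Genes shared between p53 and ATF4 may therefore be missing from it. Of 8 measured (of 15 listed) the other 7 had a higher mean, from 0.01 for BBC3 to 0.33 for RRM2B, a ribonucleotide reductase subunit, with SESN1 and TP53INP1 at 0.30 each. The median was 0.07, and 0 members passed the adjusted threshold or an unadjusted p of 0.05. Without siATF4 replicate 1 the list held 3 lower and 5 higher members, with RRM2B at 0.03 and TP53INP1 at -0.04. The median turned to -0.03 without siATF4 replicate 2 (5 lower, 3 higher) and without siCTRL replicate 3 (4 lower, 4 higher), so the direction of this list depends on single arrays.

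The partners and receptors of the 4 factors were mostly dim. For STC2, the paralog STC1 read 3.32 to 3.59 over the 6 arrays and PAPPA2, a relative of PAPP-A, 3.20 to 3.72, both around the lower quartile of named genes. The binding protein IGFBP4, the substrate of PAPP-A, read 4.52 to 4.88, with a difference of -0.16 (SE 0.12), and IGFBP5 read 3.49 to 3.99. The receptor IGF1R read 3.39 on siATF4 replicate 1 and 6.14 to 6.34 on the other 5 arrays. Its difference of -0.83 (SE 0.75) turned to 0.14 without that array.

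Of the VEGF family, VEGFB was at 5.07, 5.08 and 4.80 after siATF4 and at 4.71, 4.70 and 4.72 after siCTRL. All siATF4 arrays of VEGFB lay above all siCTRL arrays, as did those of 491 of all 14884 genes. Its difference was 0.28 (SE 0.12, unadjusted p = 0.0505, adjusted p = 1.00 in limma), in the opposite direction to VEGFA. VEGFC read 3.73 to 3.96 and the placental growth factor PGF 3.52 to 4.16. The signalling receptors were dim: FLT1 read 3.65 to 4.14, KDR 3.00 to 3.32 and FLT4 3.16 to 3.68. Of the coreceptors NRP2 read 3.41 to 3.89, while NRP1 was bright and variable, at 5.49, 6.74 and 7.85 with siATF4 and 6.55, 6.15 and 8.20 with siCTRL. NRP1 was highest on replicate 3 of both groups, and its difference of -0.28 (SE 0.72) turned to 0.33 without siATF4 replicate 1.

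For GDF15, the receptor GFRAL read 3.08 to 3.40, and its coreceptor RET, a receptor tyrosine kinase, read 6.39 on siATF4 replicate 1 and 7.93 to 8.19 on the other 5 arrays. The difference of RET was -0.56 (SE 0.43) and became -0.02 without siATF4 replicate 1. FURIN, a protease that matures TGF-beta family proteins, was at -0.17 (SE 0.12), GDF11 at 0.15 (SE 0.10) and BMP6 at -0.22 (SE 0.15). For ADM, the receptor CALCRL read 3.09 to 3.20, and RAMP1, RAMP2 and RAMP3 read 3.49 to 3.82, 3.10 to 3.64 and 3.37 to 3.96. The decoy receptor ACKR3 read 3.30 to 3.77. PAM, the enzyme that amidates adrenomedullin, read 5.30 to 5.73 with a difference of -0.08 (SE 0.15). The related peptides CALCA, CALCB and IAPP read 3.63 to 4.48, 3.08 to 3.52 and 2.94 to 3.39, and their differences lay between -0.14 and 0.02. The dim readings say nothing about protein, and signal over background was not analysed here.

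**Figure D4:**
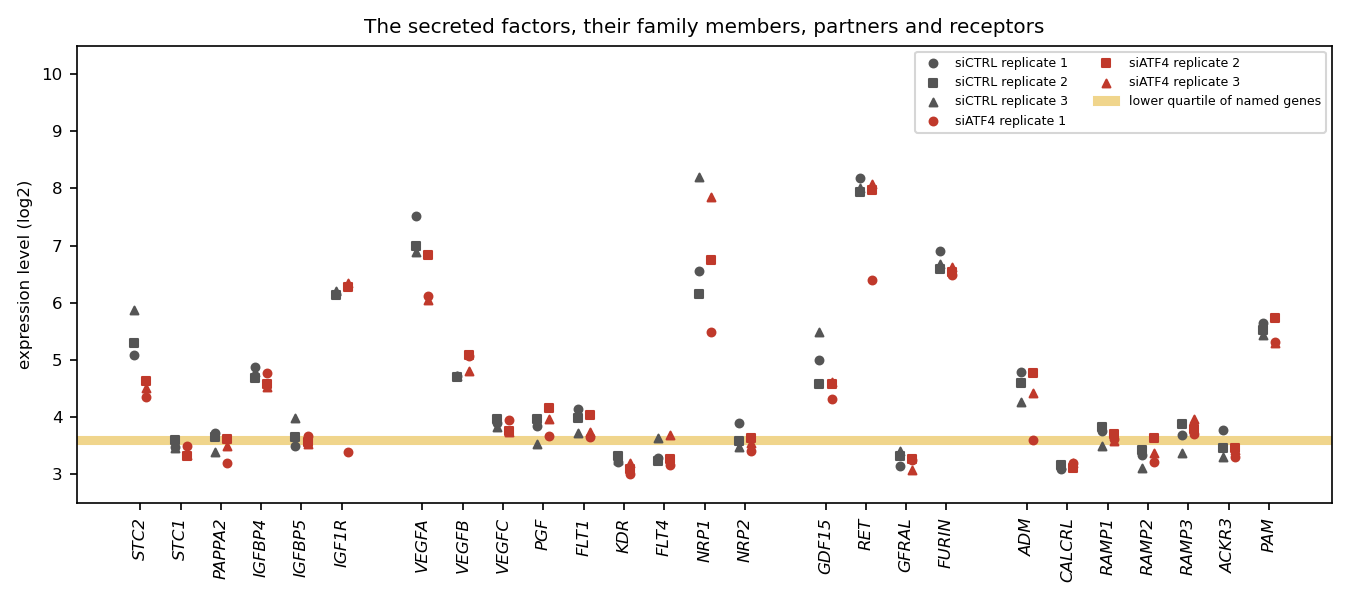
The vertical axis gives the log2 level on each array for the secreted factors and their listed family members, partners and receptors, grey for siCTRL and red for siATF4, with symbols for the replicate numbers. The band marks the lower quartile of named genes on the 6 arrays (3.53 to 3.65). KDR, CALCRL and GFRAL lie below the band on all arrays, and IGF1R and RET are low on siATF4 replicate 1 alone.

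Brightness also differs among the 4 factors. Within its array VEGFA lay between the percentiles 69.5 and 87.5 of named genes, STC2 between 48.6 and 67.3, GDF15 between 47.9 and 62.6 and ADM between 27.7 and 54.1. These percentiles describe the signal of a probe set and not the amount of a transcript.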

How the data were processed

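Per the labels' protocols, 100 ng of total RNA per MOLM14 sample was labelled with an Affymetrix whole-transcript kit. The deposited table holds 53617 features for 6 samples, and its values, made by the authors, were taken to be log2. The submitters' processing notes name Partek, and its version, background correction, normalization and log base are not given in the sources used here. Array medians were alike, so no further normalization was applied. Of the features 16098 had 1 gene symbol, 0 had several and the others stay unnamed. All 16098 identifiers matched the gene table of GRCh38.p14, used for names only. The brightest feature stood for a gene, which left 14884 genes.

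Groups follow the labels, 3 siATF4 and 3 siCTRL arrays. All genes were fitted together on the group alone (limma 3.58.1, functions lmFit and eBayes, R 4.3.3), with p-values adjusted by Benjamini-Hochberg and a threshold of 0.05. SE and 95% intervals are the moderated ones from limma. Single values also had an exact two-sided permutation test. The fit was also run on simulated data, but no outcome is given here, so that run carries no weight for these differences. Same-numbered arrays had deviations from their group means that correlated at 0.20, 0.40 and 0.62 over genes, each above the limit of 0.1. The numbers were therefore used as pairs, from the data and not from the labels, in the replicate block and the differences by number. The main fit did not use them. The siATF4 replicate 2 array correlated more with siCTRL replicate 1 (0.48) than with its own number. Precision is limited by the 3 arrays per group.

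The 4 genes and the 13 gene lists were chosen with earlier results of these data known. Genes named are the 4 members, ATF4, for each member the 5 genes with the highest correlation of level, from each list the 3 largest differences, and every measured member of the receptor, ligand and partner lists. LYZ, FLT3, CD14, KLF1, EPCAM, ASNS, PHGDH, SESN2, CTH, PCK2, FGF21, BBC3 and GDF11 stand beside them as examples. Alternatives tried were each array left out, array weights, the replicate block, a robust prior with a mean-variance trend, arrays set to 1 median, quantile normalization, a filter on the dimmest genes, and a gene's features averaged. Leaving out both arrays of a number was chosen after seeing the data.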

Additional observations from a re-analysis of the deposited data

How the results depend on the processing

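No alternative called any gene at an adjusted p of 0.05: the count was 0 in all 6 arrays, 0 under each of 7 other settings and 0 with each array left out, and at an unadjusted p below 0.05 it was 218 genes in the main limma fit and 464 with the replicate block. Over those 7 settings STC2 ranged from -0.94 to -0.71, VEGFA from -0.84 to -0.72, GDF15 from -0.52 to -0.40 and ADM from -0.28 to -0.13, the smallest size each time with array weights. With each array left out the ranges were -1.08 to -0.69 for STC2, -1.06 to -0.61 for VEGFA, -0.74 to -0.28 for GDF15 and -0.54 to 0.05 for ADM. ADM turned sign without siATF4 replicate 1 (0.05) and without both arrays numbered 1 (0.17). The cause was not tested. With the replicate block the differences of the 4 genes were -0.92, -0.80, -0.52 and -0.28 as without it, and no gene was called with it. It moved the unadjusted p of GDF15 in limma below 0.05 (0.0360) and that of LDHA above it (0.0580). Of the ATF4 targets TRIB3 (0.0913 to 0.000876) and ASNS (0.11 to 0.0119), both lower with siATF4, also moved below 0.05. So did PHGDH (0.0849 to 0.0111) and VLDLR (0.06 to 0.0226), both lower. RRM2B (0.47 to 0.0423) and CSF3R (0.526 to 0.0275), both higher, moved below it too. The mean of all features gave the same differences, since each of the 4 genes has 1 named feature. Of 169 list medians under alternatives 160 moved by less than the spread between arrays and 9 by more. Signal over background was not analysed here.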
